A study of Bos taurus with 15 samples.

Results

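Chemerin, the adipokine encoded by RARRES2, and the genes of its 3 receptors, CMKLR1, GPR1 and CCRL2, were examined in subcutaneous adipose tissue of dairy cows around calving. The 4 genes were chosen by name, out of the 13896 genes with values in all 6 comparisons of the study, and GPR1 was selected on its change from -4 to 1 wkpp (weeks peripartum, counted from calving) in both diet groups. The study sequenced 15 RNA libraries of dewlap fat from first-calf (primiparous) Prim Holstein cows, in 5 groups of 3. A group at -4 wkpp was sampled before the diets diverged. The cows on the low energy diet (LE) had a severe negative energy balance (SNEB) and those on the high energy diet (HE) a moderate one (MNEB), and each diet group was sampled at 1 wkpp and at 16 wkpp. Per the study's methods, the sequenced cows were those with the most extreme energy balance at 1 wkpp and the same animals were biopsied repeatedly, so the groups represent the ends of a range and not a random draw of a herd. The labels did not tie a library to a cow, and the p-values below measure the spread between these libraries only.

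Chemerin is secreted as an inactive precursor, mainly by fat and liver, and is activated by proteases that trim its carboxyl end. CMKLR1 is the signalling receptor through which chemerin attracts macrophages, dendritic cells and NK cells, and it is also found on adipocytes. GPR1 (now also named CMKLR2) binds chemerin with high affinity and signals more weakly, whereas CCRL2 binds chemerin without known signalling and presents it to neighbouring cells. In fat, chemerin is linked to adipocyte differentiation, to lipolysis and to the metabolic state of the animal.

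A value below is a read count of a gene's exons in a library, divided by the library's size factor (median ratio over genes with reads in every library), and is called the normalized exon count. Libraries of a group are given in the order of their size factors, the largest first. The 6 MNEB libraries held 2028309 to 7518057 reads on exons and the 9 other libraries 8076601 to 14772310. Spike-in sequences (RNA of known sequence added to a sample) took 12.0 to 40.8% relative to the exon reads in the 6 MNEB libraries and 0.682 to 3.15% in the other 9. Depth here means reads on genes: in the study's read statistics, total reads overlapped between the MNEB and the other libraries. The share of reads that aligned uniquely was lower in every MNEB library than in any other. Depth, unique alignment, spike-in share and the MNEB groups therefore moved together. Their part in any difference that involves an MNEB group cannot be told apart from the diet. The sample titles also carry a tag that the labels do not explain, m2 for SNEB at 1 wkpp and MNEB at 16 wkpp and m1 for the other 3 groups. It is the same within a group, so in 5 of the 6 comparisons (all but -4 to 1 wkpp in MNEB) whatever it marks cannot be told apart from the groups. In bulk tissue, fewer cells of a type and less RNA per cell cannot be told apart either. The labelled tissue showed its markers in all libraries: the adipocyte markers LEP, PLIN1, FABP4, LIPE, CIDEC and CIDEA had reads in every group, and ADIPOQ was not analysed here.

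The level of GPR1 at -4 wkpp lay between those of the SNEB and MNEB groups at 1 wkpp. Its normalized exon count at -4 wkpp was 264, 239 and 234 (245 ± 16.4, SD, n = 3). At 1 wkpp it was 710.0, 391 and 569.9 in SNEB (557 ± 160.0, n = 3) and 105, 57.0 and 73.8 in MNEB (78.5 ± 24.2, n = 3). All SNEB libraries lay above, and all MNEB libraries below, the 3 libraries taken at -4 wkpp. Libraries of the 2 groups compared did not overlap for 19.2% of all genes tested on exons from -4 to 1 wkpp in SNEB and for 41.6% in MNEB, and these contrasts chose the gene. The MNEB values rest on few reads, namely 100, 21 and 20 exon reads, and 20 reads carry an exact 95% Poisson interval of 12.2 to 30.9, which covers counting error only.

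As fitted by limma, the log2 change of GPR1 from -4 to 1 wkpp was 1.13 in SNEB (SE 0.24, 95% interval 0.58 to 1.69) and -1.54 in MNEB (SE 0.32, -2.24 to -0.84), which is 2.20-fold higher and 2.90-fold lower. Between SNEB and MNEB at 1 wkpp it was -2.69 (SE 0.40). On reads of the entire gene, exons and introns together, the 3 log2 changes were 1.295, -1.37 and -2.66. These contrasts chose the gene, so their values are a description and carry no test. Both changes share the -4 wkpp libraries. Among all genes tested on exons, GPR1 ranked 1170th of 11989 by size of change in SNEB and 1907th of 12253 in MNEB.

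**Figure D1:**
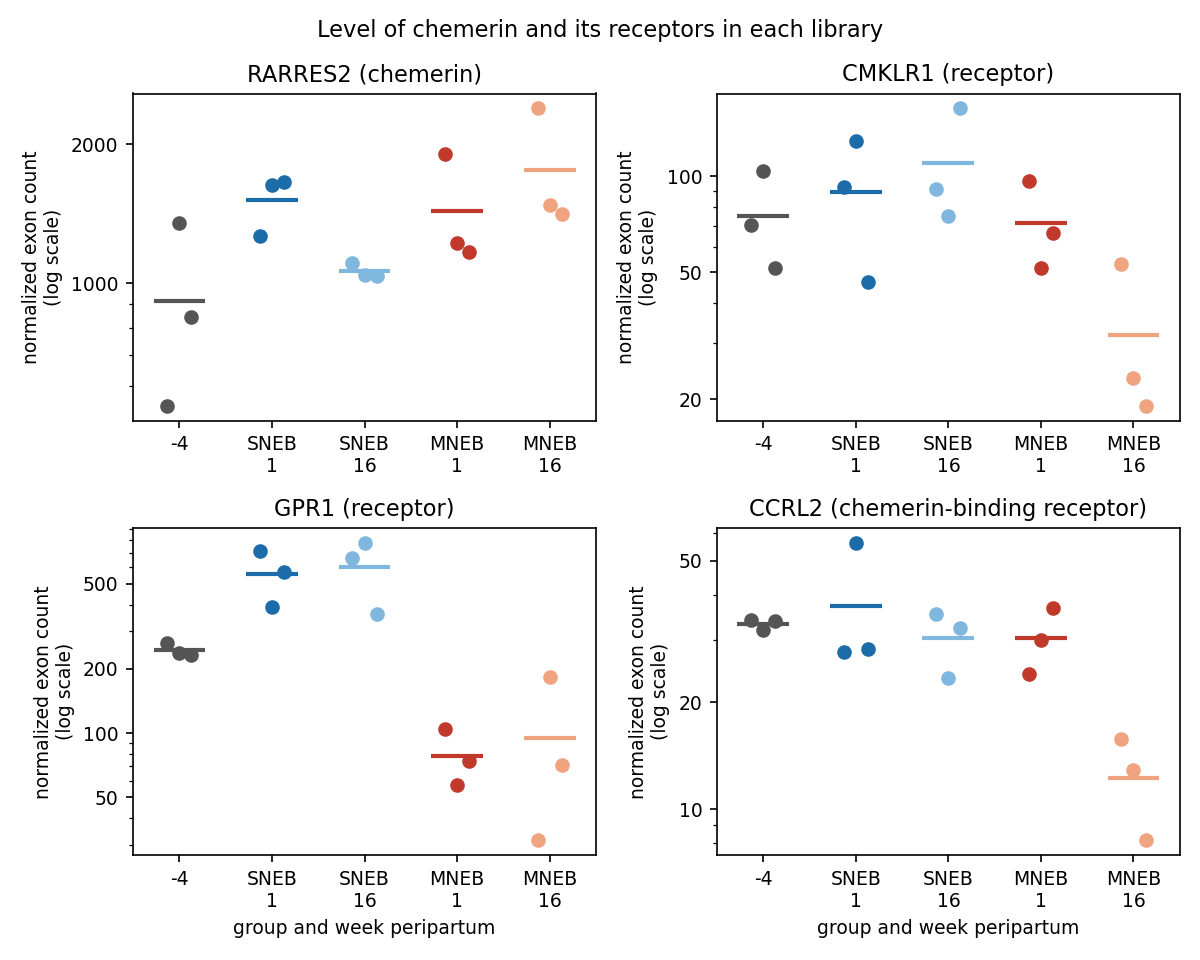
Normalized exon count (log scale, with a different range in each panel) of RARRES2, CMKLR1, GPR1 and CCRL2 by group and week peripartum; each point is a library and each bar the mean of 3. GPR1 is higher in the SNEB libraries (361 to 778) than in the MNEB libraries (31.4 to 183). Libraries of 1 wkpp helped to choose GPR1, so their separation is a description. SNEB and MNEB libraries also do not overlap for 36.9% of all genes tested on exons at 1 wkpp and for 40.6% at 16 wkpp. CMKLR1 and CCRL2 are lowest in MNEB at 16 wkpp.

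The comparison of SNEB with MNEB at 16 wkpp uses none of the libraries that chose GPR1. It is not independent of the choice, because the same cows were biopsied repeatedly and the genes were picked with earlier results of these data known. The gene had a normalized exon count of 660.0, 778 and 361 in SNEB (599.7 ± 215, n = 3) and of 31.4, 183 and 70.7 in MNEB (95.1 ± 78.8, n = 3). The highest MNEB library lay below the lowest SNEB library. The MNEB group was spread widely, and its 3 libraries held 32, 71 and 26 exon reads.

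GPR1 was lower in MNEB than in SNEB at 16 wkpp by a log2 difference of -3.25 (SE 0.56, 95% interval -4.52 to -1.99, limma adjusted p = 0.0041 on exons). On entire genes the difference was -3.13 (SE 0.51, limma adjusted p = 0.0084). A gene was called where the adjusted p, over all genes tested, was below 0.01 in both analyses, as the study required. In this comparison 361 of 11502 genes were called (3.14%), and 103 of them were lower in MNEB (0.895%). On exons GPR1 ranked 59th of 11711 genes by size of difference and 32nd from the lowest. It was the only call among 19 member tests, from which the comparisons of GPR1 that involve the 1 wkpp libraries are left out, since those libraries chose it. The call was lost with 1 library left out in 5 of 6 cases: without the deepest, the next or the shallowest SNEB library the log2 difference was -3.15, -3.03 and -3.58, and without the deepest or the shallowest MNEB library it was -2.30 and -3.33.

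Within a diet, the change of GPR1 from 1 to 16 wkpp is given as a description, with no test, because the 1 wkpp libraries chose the gene. The log2 change was 0.10 in SNEB (SE 0.32, 95% interval -0.63 to 0.83) and -0.46 in MNEB (SE 0.59, -1.80 to 0.87). In MNEB the arithmetic mean was higher at 16 wkpp and the fitted log2 change below 0, as 1 library of 3 was high. Neither interval excludes a change of 1.5-fold. On entire genes the SNEB change was -0.20, with the opposite sign. None of the 11556 genes in SNEB (0%) and none of the 11605 genes in MNEB (0%) was called by limma between these weeks, while 823 and 1366 genes had an unadjusted p under 0.05 on exons.

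**Figure D2:**
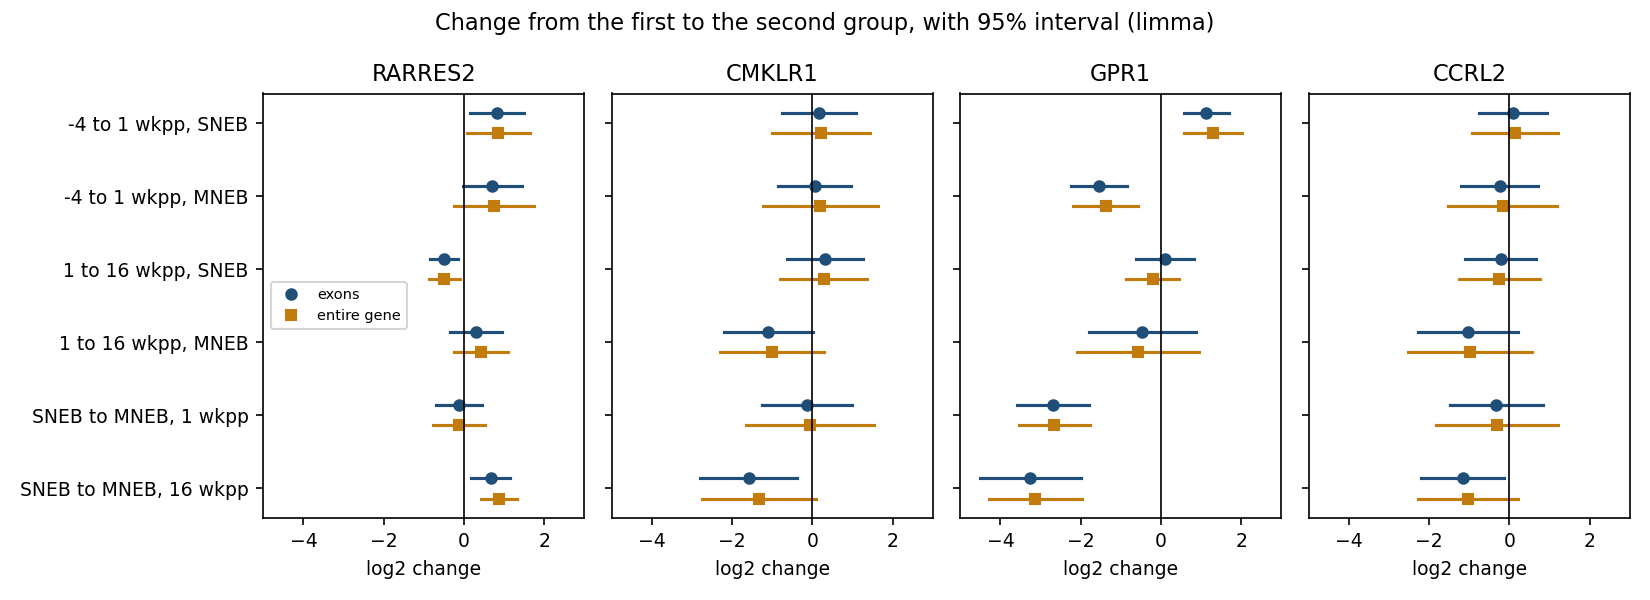
Log2 change (horizontal axis) of the 4 genes from the first to the second group of each comparison, on exons (circles) and on entire genes (squares), with 95% intervals from limma. For GPR1 the intervals of comparisons that involve 1 wkpp are a description, since those libraries chose the gene, and its log2 difference at 16 wkpp was -3.25 on exons; most intervals of the other 3 genes include 0.

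GPR1 differed from the other 3 genes in where its reads fell. Introns held 65.6 to 83.3% of its entire-gene reads over the 15 libraries (median 75.9%), against 5.09 to 11.9% for RARRES2, 0 to 12.2% for CCRL2 and 0% for CMKLR1. The share over all genes was 39.5 to 52.4% in the MNEB libraries and 44.6 to 59.2% in the others. Intron reads of GPR1, scaled by the size factors of the entire-gene analysis, were 1033, 492 and 943 at -4 wkpp. In SNEB they were 2438, 1286 and 2547 at 1 wkpp and 1559, 2056 and 1313 at 16 wkpp. MNEB libraries held 423, 255 and 228 at 1 wkpp and 92.1, 496 and 253 at 16 wkpp. Intron reads are the entire-gene reads less the exon reads, so no read is in both counts. On either count the SNEB libraries lay above the MNEB libraries at 1 wkpp, where exon and entire-gene values chose the gene, and at 16 wkpp.

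**Figure D3:**
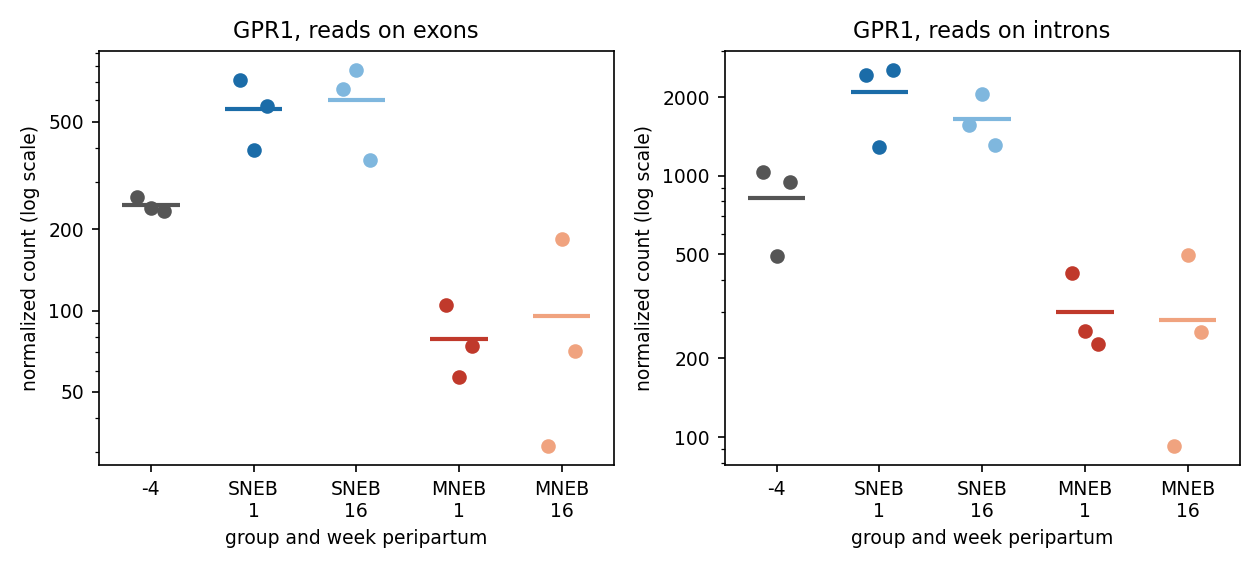
Normalized counts (log scale) of GPR1 reads on exons (left) and on introns (right) in each library by group and week peripartum, with the group means as bars. On introns the SNEB libraries (1286 to 2547) lie above all MNEB libraries (92.1 to 496). Libraries of 1 wkpp helped to choose GPR1, so their separation is a description.

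RARRES2, the ligand, followed another course. Its normalized exon count was 543, 1352 and 846 at -4 wkpp (914 ± 408, n = 3), which overlapped both groups at 1 wkpp. Scaled by total reads, the highest value at -4 wkpp was 1246 and the lowest in SNEB at 1 wkpp 1302, with no overlap. With size factors, libraries did not overlap in this comparison for 19.2% of all genes tested on exons. In SNEB it was 1267, 1630.3 and 1654 at 1 wkpp (1517 ± 217) and 1106, 1043 and 1038 at 16 wkpp (1062 ± 37.6), and the libraries of these 2 weeks did not overlap, as for 12% of all genes tested on exons in this comparison. In MNEB it was 1908, 1221 and 1170.3 at 1 wkpp (1433 ± 412) and 2389.5, 1474 and 1409 at 16 wkpp (1757 ± 548). At 16 wkpp every MNEB library was above every SNEB library.

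None of the changes of RARRES2 was called. From -4 to 1 wkpp the log2 change was 0.82 in SNEB (SE 0.30, limma adjusted p = 0.25) and 0.71 in MNEB (SE 0.33, limma adjusted p = 0.15). In these comparisons limma called 4 of 11748 genes (0.034%) and 118 of 12041 genes (0.98%), of which 79 were lower at 1 wkpp. When libraries were scaled by their total reads instead, 236 genes were called in MNEB and 105 of them were lower. From 1 to 16 wkpp it was -0.49 in SNEB (SE 0.15, unadjusted p = 0.013 and limma adjusted p = 0.70) and 0.29 in MNEB (SE 0.29, limma adjusted p = 0.73). SNEB and MNEB differed by -0.12 at 1 wkpp (SE 0.25, 95% interval -0.69 to 0.45). At 16 wkpp RARRES2 had a log2 difference of 0.67 in MNEB over SNEB on exons (SE 0.21, 95% interval 0.19 to 1.15, limma adjusted p = 0.053). On entire genes this difference was 0.88 (SE 0.19, limma adjusted p = 0.024), again short of the 0.01 threshold. In the later RefSeq annotation of the cow genome (assembly ARS-UCD2.0, not the one used for counting), RARRES2 overlaps SSPO, ZNF862, ATP6V0E2, LRRC61 and ZBED10, and whether the counting used strand was not given in the sources used here, so its reads may include some of theirs.

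CMKLR1, the main signalling receptor, varied within groups as much as between most of them. At -4 wkpp its normalized exon count was 70.5, 104 and 51.6 (75.3 ± 26.4, n = 3). In SNEB it was 92.3, 129 and 46.6 at 1 wkpp (89.4 ± 41.4) and 91.3, 75 and 163 at 16 wkpp (109.9 ± 47.0). In MNEB it was 96.3, 51.6 and 66.4 at 1 wkpp (71.5 ± 22.8) and 53.0, 23.2 and 19.0 at 16 wkpp (31.8 ± 18.5). The MNEB libraries at 16 wkpp were below every SNEB library of that week, on 54, 9 and 7 reads, and 7 reads carry an exact 95% Poisson interval of 2.81 to 14.4.

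The log2 difference of CMKLR1 between SNEB and MNEB at 16 wkpp was -1.59 on exons (SE 0.54, 95% interval -2.80 to -0.38, limma adjusted p = 0.063) and -1.33 on entire genes (SE 0.63, limma adjusted p = 0.22), which was not called. With 1 library left out the exon value was -2.21 to -1.26 (limma adjusted p = 0.044 to 0.19). Within MNEB the change from 1 to 16 wkpp was -1.10 (SE 0.50, limma adjusted p = 0.43), and -1.77 to -0.76 with 1 library left out. At 1 wkpp SNEB and MNEB differed by -0.13, with a 95% interval of -1.26 to 0.99 that leaves room for a difference of either sign. From -4 to 1 wkpp the log2 change was 0.17 in SNEB and 0.06 in MNEB, both smaller than their SE of 0.41.

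CCRL2, the non-signalling chemerin receptor, had the fewest reads of the 4 genes, between 3 and 100 exon reads a library. At -4 wkpp its normalized exon count was 34.1, 31.9 and 33.8 (33.3 ± 1.19, n = 3). In SNEB it was 27.7, 56.2 and 28.2 at 1 wkpp (37.4 ± 16.3) and 35.5, 23.4 and 32.4 at 16 wkpp (30.4 ± 6.30). In MNEB it was 24.1, 29.9 and 36.9 at 1 wkpp (30.3 ± 6.43) and 15.7, 12.9 and 8.16 at 16 wkpp (12.3 ± 3.82). The libraries of the first 4 groups lay between 23.4 and 56.2, and those of MNEB at 16 wkpp were below all others. Libraries of 1 and 16 wkpp in MNEB did not overlap for 18.8% of all genes tested on exons.

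Those last 3 libraries held 16, 5 and 3 exon reads of CCRL2, and 3 reads carry an exact 95% Poisson interval of 0.619 to 8.77. The log2 difference between SNEB and MNEB at 16 wkpp was -1.16 (SE 0.46, 95% interval -2.20 to -0.13, limma adjusted p = 0.10) on exons and -1.04 on entire genes (SE 0.55, limma adjusted p = 0.27). From 1 to 16 wkpp in MNEB CCRL2 had a log2 change of -1.03 (SE 0.55, limma adjusted p = 0.50). In the other 4 comparisons its log2 changes were between -0.32 and 0.09. None of these passed the test.

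At 16 wkpp the libraries of SNEB and MNEB did not overlap on exons for any of the 4 genes, RARRES2 being higher in MNEB and the 3 receptors lower. The same was true of 4753 of the 11711 genes tested on exons (40.6%), of which 2382 were lower in MNEB (20.3%). At 1 wkpp the diet groups did not overlap for GPR1, which these libraries had chosen, and overlapped for the other 3 genes, while 36.9% of all genes tested on exons did not overlap. At this week limma called none of the 11704 genes in both analyses (0%), although 3560 genes had an unadjusted p under 0.05 on exons and 104 an adjusted p below 0.01 on exons alone.

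Whether the change from 1 to 16 wkpp differed between the diets was tested in the 12 libraries of these 4 groups. The MNEB change minus the SNEB change was 0.78 for RARRES2 (SE 0.34, 95% interval 0.05 to 1.51, unadjusted p = 0.037 and adjusted p = 0.98 by limma). It was -1.46 for CMKLR1 (SE 0.79) and -0.87 for CCRL2 (SE 0.68), both with a limma adjusted p of 0.98. For GPR1 it was -0.57 (SE 0.76), given as a description. None of 12478 genes was called by limma (0%), and 570 had an unadjusted p under 0.05.

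The receptors were also set against the ligand within each library, which needs no scaling between libraries. For every 100 exon reads of RARRES2, GPR1 had 48.6, 17.6 and 27.6 reads at -4 wkpp. In SNEB it had 56.0, 24.0 and 34.5 at 1 wkpp and 59.7, 74.6 and 34.8 at 16 wkpp. In MNEB it had 5.49, 4.67 and 6.31 at 1 wkpp and 1.32, 12.4 and 5.02 at 16 wkpp, below every library of the other 3 groups. The -4 and 1 wkpp libraries chose GPR1, so its ratios are a description with no test. How many other genes were separated in this way was not computed. CMKLR1 had 6.10 to 13.0 reads per 100 at -4 wkpp, 2.82 to 7.93 in SNEB and 4.22 to 5.68 in MNEB at 1 wkpp, and 7.19 to 15.7 in SNEB and 1.35 to 2.22 in MNEB at 16 wkpp. The CCRL2 ratio was 2.24 to 3.21 in SNEB and 0.579 to 0.876 in MNEB at 16 wkpp, while the diet groups overlapped at 1 wkpp. These ratios are not levels per molecule, since the genes differ in length.

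The 5 genes with a course over the 5 groups most like that of GPR1 were CD14, C1QC, ENPP5, ANG and MPEG1. Likeness was the root mean square difference of the group means of the log2 level, each gene centred on its own mean, among 11315 genes, and it was 0.21, 0.27, 0.28, 0.29 and 0.29. CD14 is a co-receptor for bacterial lipopolysaccharide on monocytes and macrophages, C1QC a chain of complement C1q, ENPP5 a membrane glycoprotein of the nucleotide pyrophosphatase family, ANG the ribonuclease angiogenin, and MPEG1 the pore-forming perforin-2 of macrophages. Because the course of GPR1 itself set the order, this is a description. The libraries within a group followed GPR1 in some groups and not in others. In SNEB the normalized exon counts of CD14 were 759, 1255 and 453 at 1 wkpp and 504, 593 and 1173 at 16 wkpp, highest in each week in the library where GPR1 was lowest. In MNEB at 1 wkpp they were 412, 46.1 and 140.3, in the same order as GPR1, and at 16 wkpp 81.5, 119 and 144. MPEG1 had 1148, 269 and 417 in MNEB at 1 wkpp and 176, 454 and 258 at 16 wkpp, in the order of GPR1 at both weeks. In SNEB it had 2479, 4339.5 and 1467 at 1 wkpp and 2982, 2008 and 4582 at 16 wkpp, again highest where GPR1 was lowest.

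The next genes on either side of GPR1 with values here were looked up after the data were seen, in the gene order of ARS-UCD2.0. EEF1B2, which encodes a translation elongation factor subunit, had 1633 to 3875 normalized exon counts in MNEB at 16 wkpp and 2277 to 2488 in SNEB. ADAM23, a membrane protein without protease activity, had 108 to 152 in MNEB and 20.1 to 65.8 in SNEB. Neither neighbour was lower in all MNEB libraries.

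Markers of several cell types moved with the MNEB groups. The summed normalized exon count of 8 macrophage markers was 8971 to 16671 at -4 wkpp, 11645 to 25434 in SNEB and 2608 to 9648 in MNEB at 1 wkpp, and 21922 to 27425 in SNEB and 2747 to 3697 in MNEB at 16 wkpp. Among them CD163, a scavenger receptor for haemoglobin, and CSF1R, the receptor of the macrophage growth factor CSF1, were called lower in MNEB at 16 wkpp, with log2 differences of -3.30 and -1.97, and both calls held with each of the 6 libraries left out. The sum of 4 stromal fibroblast markers was 60119.9 to 71269 at -4 wkpp. It was 34428 to 53087 in SNEB and 6568 to 12005 in MNEB at 1 wkpp, and 68370.4 to 76547 in SNEB and 9069 to 22250.0 in MNEB at 16 wkpp. DCN, which encodes the matrix proteoglycan decorin, was called lower from -4 to 1 wkpp in MNEB, with a log2 change of -2.84, as was PDGFRA, a receptor of stromal progenitors, with -2.40. DCN was also called lower in MNEB than in SNEB at 16 wkpp, with -2.20. The 3 calls were each lost in 5 of 6 cases with 1 library left out, at log2 values of -3.02 to -2.49 and -2.45 to -1.90 for DCN and -2.54 to -2.31 for PDGFRA. They held without the deepest MNEB library, and the call of DCN at 16 wkpp was lost without the filter on low counts. Among the 6 adipocyte markers the sum was 45485 to 55059 at -4 wkpp, 71521 to 87222 in SNEB and 18617 to 55920.2 in MNEB at 1 wkpp, and 41547 to 47916 in SNEB and 9380.2 to 39355 in MNEB at 16 wkpp. CIDEC, a lipid droplet protein, was called lower from -4 to 1 wkpp in MNEB (-2.37) and its relative CIDEA lower over the same weeks in SNEB (-3.26). In MNEB CIDEA had -2.79 and missed the call on entire genes (limma adjusted p = 0.00071 on exons and 0.011 on entire genes). In SNEB CIDEC had -0.55 and was not called. The call of CIDEC held only without the deepest MNEB library (-2.47 to -2.26 over the 6 cases). That of CIDEA held only without the second SNEB library (-3.56 to -3.03) and was lost under total-read scaling. The other 4 adipocyte markers were not called over these weeks and did not share a direction. LIPE, hormone-sensitive lipase, had log2 changes of 0.94 in MNEB and 0.98 in SNEB. FABP4, a fatty acid binding protein, had -0.87 in MNEB and 1.13 in SNEB, and the lipid droplet protein PLIN1 had -0.85 and 0.59. LEP, which encodes leptin, had -3.84 in MNEB and -1.39 in SNEB. Without a call in any comparison, LEP also had -2.45 between SNEB and MNEB at 1 wkpp, 2.22 between them at 16 wkpp and -4.76 from 1 to 16 wkpp in SNEB. No marker of these 3 lists was at 0 in all libraries.

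The part of these markers in the difference of GPR1 was not tested. Within the SNEB groups, the library with the lowest GPR1 had the highest macrophage sum: at 1 wkpp GPR1 was 391 where the sum was 25434, and at 16 wkpp GPR1 was 361 where the sum was 27425. CD14 and CD68 were highest in these same libraries, but CD163 was not. In SNEB CD163 had 4999, 4508 and 4063 at 1 wkpp, highest where GPR1 was highest. At 16 wkpp it had 6798, 5012 and 4135, lowest where GPR1 was lowest. Within the MNEB groups the macrophage sums had the same order as GPR1. They were 9648, 2608 and 5412 at 1 wkpp, where GPR1 was 105, 57.0 and 73.8, and 2747, 3697 and 3149 at 16 wkpp, where GPR1 was 31.4, 183 and 70.7. From -4 to 1 wkpp in SNEB, where GPR1 was higher in all 3 libraries, the stromal sum was lower in all 3, the adipocyte sum was higher in all 3 and the endothelium sum went from a range of 20339 to 25492 to a range of 31305 to 38492. The macrophage sums of these groups overlapped (8971 to 16671 and 11645 to 25434). Each of the 8 macrophage markers had a log2 change above 0 in SNEB (median 0.47) and below 0 in MNEB (median -0.93). CD163 had 1.40 in SNEB (limma adjusted p = 0.0063 on exons and 0.029 on entire genes, not called) and -0.52 in MNEB.

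**Figure D4:**
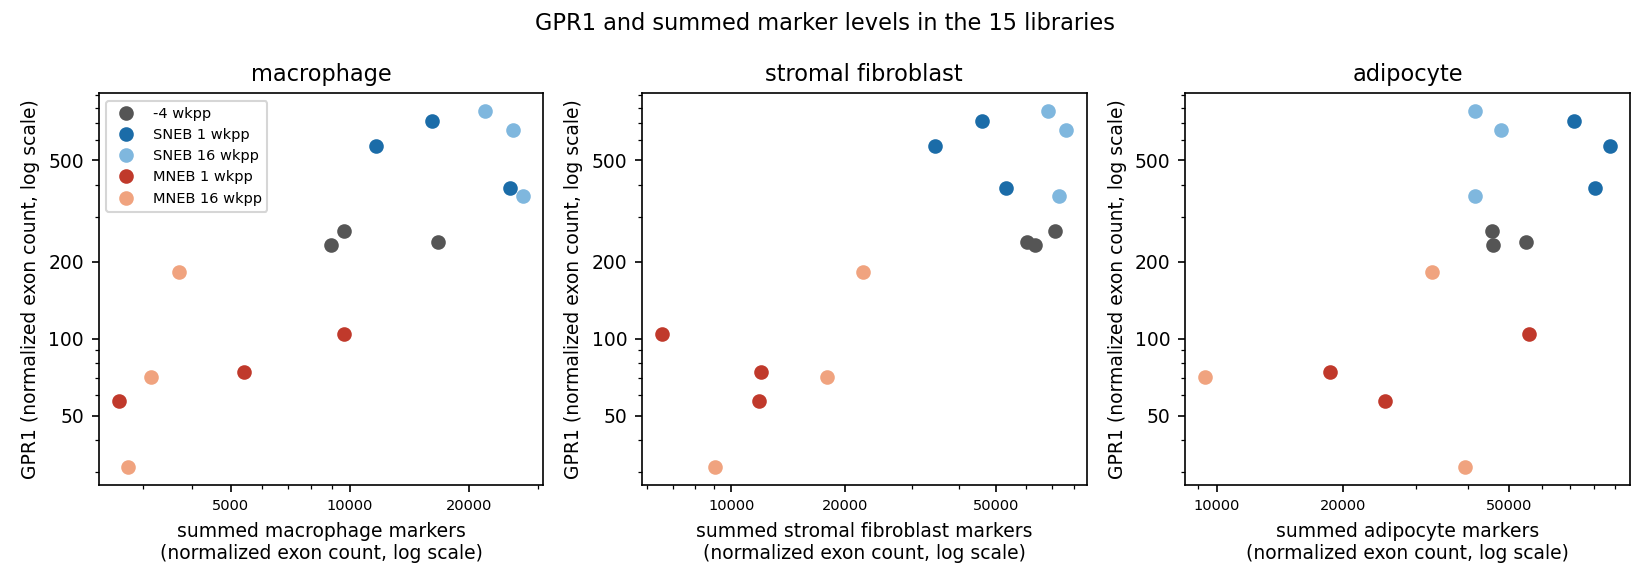
Normalized exon count of GPR1 against the summed markers of macrophages, stromal fibroblasts and adipocytes (both axes log scale), each point being 1 of the 15 libraries, coloured by group. The MNEB libraries lie at low GPR1 (31.4 to 183), with low stromal sums (6568 to 22250.0) and macrophage sums of 2608 to 9648. Libraries of 1 wkpp helped to choose GPR1, so its level in them is a description.

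Over all 12 marker lists, the summed levels at 16 wkpp were lower in every MNEB library than in every SNEB library for 6 (adipocyte, macrophage, stromal fibroblast, NK and T cell, mast cell, lymphatic endothelium) and higher for 2 (skeletal and smooth muscle). They overlapped for 4 (endothelium, neutrophil, B cell, keratinocyte). The skeletal muscle sum was 233 to 340.0 in SNEB and 1705 to 3808 in MNEB, and TNNT3, a fast-muscle troponin, made up 1651 to 3799 of the MNEB sum. It was called higher in MNEB, with a log2 difference of 3.27 on exons and 1.79 on entire genes, and no other skeletal muscle marker was called. The mast cell genes CPA3, a carboxypeptidase, and KIT, the stem cell factor receptor, were called lower (-4.24 and -2.55), as was LYVE1, a hyaluronan receptor of lymphatic vessels (-2.93). With 1 library left out the call held in 1 of 6 cases for TNNT3 (3.02 to 3.58), in 2 for CPA3 (-4.54 to -3.89) and for KIT (-2.70 to -2.42) and in 4 for LYVE1 (-3.12 to -2.43). The calls of TNNT3 and CPA3 were also lost in the joint fit of 15 libraries, and that of TNNT3 without the filter on low counts.

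Genes that act on chemerin or beside its receptors were read from 5 further lists. Of 21 enzymes listed as cutting or trimming chemerin or as close relatives of these, 9 were tested between SNEB and MNEB at 16 wkpp and 1 was called, CTSS, the lysosomal protease cathepsin S, where 3.14% of all genes were called. It had 2767, 2848 and 4645 normalized exon counts in SNEB and 615, 793 and 598 in MNEB, a log2 difference of -2.34 (SE 0.24, limma adjusted p = 0.00058). The median difference of the 9 enzymes was -0.999, against -0.0049 over all genes tested. The call of CTSS was lost in 4 of 6 cases with 1 library left out: without the second SNEB library the log2 difference was -2.45, and without the first, second or last MNEB library it was -2.27, -2.46 and -2.28. Of the 8 enzymes not called, 5 had a difference below 0, among them cathepsins K (CTSK, -1.86) and L (CTSL, -2.43), and 3 above 0, among them the peptidases ACE (1.06) and CPB1 (1.64).

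Of 8 CC and atypical chemokine receptors, 1 was called at 16 wkpp, ACKR3, a scavenger of the chemokine CXCL12, beside 3.14% of all genes. Its normalized exon count was 4356, 1947 and 2155 in SNEB and 874, 684 and 661 in MNEB, a log2 difference of -1.82 (SE 0.29, limma adjusted p = 0.0028 on exons and 0.0090 on entire genes). This call was lost with any 1 of the 6 libraries left out (log2 difference -2.04 to -1.47), and under total-read scaling (-1.78), without the filter on low counts (-1.82) and in a joint fit of all 15 libraries (-1.82). The median over the 8 was -1.75, with 7 below 0. None of 5 receptors for related chemoattractants was called, with a median of -1.49, 3 below and 2 above 0. C3AR1, the complement C3a receptor, had a log2 difference of -3.99, with a limma adjusted p of 0.0020 on exons and 0.012 on entire genes, and the leukotriene B4 receptors LTB4R and LTB4R2 had 0.79 and 1.59.

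Signal transduction below the receptors showed no call: among 15 G protein, receptor kinase, arrestin and kinase genes the median difference at 16 wkpp was 0.23, with 11 above and 4 below 0. The receptor kinase GRK5 had 1.43 (limma adjusted p = 0.00091 on exons and 0.024 on entire genes). The arrestin ARRB2 had -1.23 (limma adjusted p = 0.0075 and 0.015). The 7 transcription factors tested had a median of 0.37, with 5 above and 2 below 0, and no call. SREBF2 had a log2 difference of 1.91 (limma adjusted p = 0.0085 on exons and 0.021 on entire genes). RXRA had 0.64 (limma adjusted p = 0.044 and 0.023), and both passed a threshold of 0.05 in both analyses. PPARG, the adipocyte regulator that controls chemerin expression, had a log2 difference of -0.39 (SE 0.29, limma adjusted p = 0.37) on exons, and it had no test on entire genes. In the other 5 comparisons no gene of these 5 lists was called.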

How the data were processed

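RNA from 15 subcutaneous fat biopsies was sequenced after ribosomal RNA depletion with a stranded total RNA kit. Per the labels and the study's methods, reads were demultiplexed with bcl2fastq 2.15.0, trimmed with cutadapt 1.3, aligned to bosTau8 with TopHat2 and counted with HTSeq in the intersection-nonempty mode, on exons and on entire genes. The authors then ran DESeq2 on each pair of groups. The deposited tables hold, for each of the 6 comparisons and both counts, a mean normalized count per gene over 6 libraries (a signal), with the authors' fold changes and p-values, which were not used.

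Each mean is a sum of whole reads times a step for each library. From the 6 overlapping means, the whole reads of every library were solved for 13892 of 13896 genes on exons and 13890 on entire genes, and the rebuilt means differed from the deposited means by at most 6.42e-15 in relative terms. The genes left unsolved (4 and 6) have very high means and include the collagen genes COL1A1, COL1A2 and COL3A1. A library's group followed from the tables that contain it, and the order within a group is by size factor. Genes with at least 10 reads over the 6 libraries were tested with limma 3.58.1 (voom, two-sided) in R 4.3.3, for each pair of groups, with Benjamini-Hochberg adjustment over all genes tested. Count models had not been planned, since the tables hold no counts per library. The procedure was tested on simulated data. Intervals are at 95%.

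The 4 genes and all gene lists were chosen with earlier results of these data known. The genes named were the 4 members, up to 4 called genes of each list by size of exon change, the 5 genes most like GPR1 and marker genes beside a member. Enzymes, receptors, signalling genes and transcription factors named as not called, and the neighbours of GPR1, were added after their values were seen. The alternatives were another scaling, no filter, unweighted log2 values with a pseudocount of 1, a joint fit of 15 libraries, array weights, each analysis alone, a threshold of 0.05 and each library left out.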

Additional observations from a re-analysis of the deposited data

Results flagged for a closer look

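The log2 change of GPR1 from -4 to 1 wkpp was 1.13 in SNEB and -1.54 in MNEB. Every SNEB library lay above and every MNEB library below the libraries at -4 wkpp. The difference between the 2 changes was not tested, since both share the -4 wkpp libraries and both chose the gene.

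Reads on spike-in sequences, which no comparison uses, were more abundant in the MNEB libraries. The lowest MNEB library had spike-in reads equal to 18.3% of its exon reads at 1 wkpp and 12.0% at 16 wkpp, against a highest value of 3.15% in the 9 libraries of the other groups.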

How the results depend on the processing

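Of the values recomputed under other settings, 308 kept their direction and their side of the threshold, 21 changed sign and 7 lost their call. The difference of GPR1 between SNEB and MNEB at 16 wkpp was called under total-read scaling, the joint fit of 15 libraries, array weights, each analysis alone and a threshold of 0.05. It was not called without the filter (-3.24, with the entire-gene adjusted p at 0.012 by limma) or on unweighted log2 values (-2.92, 0.012), so the count of called members went from 1 to 0 in both. With 1 library left out it was -3.78 to -2.30, and 0 to 1 members were called. The 2 calls of list genes over the 6 comparisons became 1 without the filter, 4 on unweighted values, 13 (10 genes) in the joint fit, 25 (16 genes) with array weights, 24 (16 genes) on exons alone and 20 (15 genes) at 0.05, and 0 to 9 with 1 library left out (9 without the first MNEB library at 1 wkpp). Under total-read scaling the count stayed at 2, with NR1H3 (-4 to 1 wkpp, MNEB) called in place of ACKR3. The difference of the 1 to 16 wkpp changes gave 0 calls throughout, including with 1 library left out, a setting added after the data were seen.

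Signs turned only in values that were not called. CMKLR1 from -4 to 1 wkpp in MNEB was -0.073 on unweighted values and -0.035 with array weights. Array weights also gave -0.13 for CCRL2 from -4 to 1 wkpp in SNEB and 0.00065 for CCRL2 between diets at 1 wkpp. GPR1 from 1 to 16 wkpp in SNEB was -0.20 on entire genes. With 1 library left out, CMKLR1 ranged from -0.38 to 0.33 (-4 to 1 wkpp, MNEB), -0.15 to 0.55 (-4 to 1 wkpp, SNEB), -0.54 to 0.20 (diets, 1 wkpp) and -0.069 to 0.63 (1 to 16 wkpp, SNEB). CCRL2 ranged from -0.25 to 0.28 (-4 to 1 wkpp, SNEB), -0.40 to 0.13 (1 to 16 wkpp, SNEB) and -0.53 to 0.0071 (diets, 1 wkpp). GPR1 from 1 to 16 wkpp ranged from -0.14 to 0.42 in SNEB and -1.04 to 0.47 in MNEB, and RARRES2 between diets at 1 wkpp from -0.37 to 0.0087. For none of these was the cause tested.

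Genes called between diets at 16 wkpp numbered 361, and 271 to 473 under the other settings at 0.01 in both analyses (27 to 133 with 1 library left out). Between diets at 1 wkpp the 0 calls became up to 830 and up to 705 with 1 library left out. From -4 to 1 wkpp the 118 calls in MNEB became 66 to 1585 (1 to 189) and the 4 calls in SNEB 0 to 296 (0 to 73). Total-read scaling moved the median change over all genes on exons from 0.03 to 0.17 for -4 to 1 wkpp in MNEB. No paired analysis was possible because the recovered libraries carry no number that the labels share between groups. Depth limits CMKLR1 and CCRL2 in MNEB, where a library held as few as 7 and 3 exon reads.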
